A study of Bos taurus with 18 samples.

Results

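The genes described here make cholesterol and fatty acids, control that synthesis, or carry and store sterols. They came from a list of 38 symbols, and a listed gene became a member when the platform's probe-gene table gave it a probe set of its own. A gene with several probe sets was read from the one with the highest mean over the 18 arrays. This gave 33 members of the 9155 genes with a probe set: 15 sterol synthesis enzymes, 5 genes of SREBP control, 3 of sterol transport and storage, 9 of fatty acid synthesis and use, and the mitochondrial thiolase ACAT1. IDI1, SC5D, STARD4, HSD17B7 and FADS1 were not analysed here.

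Each of 6 cows gave its single dominant follicle, and RNA of 3 cell populations of each follicle was hybridised to Affymetrix 3' expression arrays. The follicles of cows D, F and G were taken before the surge of luteinising hormone (LH), and those of cows A, B and C 22 h after gonadotropin-releasing hormone (GnRH), which was given to induce that surge. The protocol text counts the 22 h from the surge itself, so the exact interval is uncertain. The populations were granulosa cells left on the follicle wall (membrane granulosa), granulosa cells aspirated with the follicular fluid (antral granulosa) and theca, the vascular layer outside the basement membrane, so that the 6 groups held 3 arrays each. No cow was sampled at both times, and the labels give no breed, age or other treatment. The p-values of LH differences therefore rest on the spread between cows, pooled over the 6 groups. That pooling treats the 3 arrays of a cow as independent, although most were correlated, so these p-values may be too small. Those of comparisons within cows rest on the spread of within-cow differences. All values are log2 levels or log2 differences.

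Cells make cholesterol from acetyl-CoA through mevalonate, squalene and lanosterol. When sterols run low in the endoplasmic reticulum, SCAP escorts the SREBP transcription factors to the Golgi, where they are cut free to switch on the enzymes of cholesterol and fatty acid synthesis, the LDL receptor and INSIG1. INSIG1 in turn holds SCAP back when sterols are plentiful. In the ovary cholesterol is the raw material of all steroids, and follicle cells change from making oestradiol and androgen to making progesterone as they luteinise after the LH surge.

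The labels were checked against marker genes. The 9 measured granulosa markers had a mean level of 10.39 to 10.76 on the granulosa arrays before LH, of 8.19 to 8.81 after, and of 7.29 to 8.91 on the theca arrays. The 8 theca markers lay at 10.70 to 11.75 on theca arrays and at 5.91 to 6.14 on antral arrays before LH, where 2 to 3 of the 8 were below 4.62 and treated as dim, but at 7.75 to 9.77 on membrane granulosa arrays before LH and 8.82 to 9.87 after. Membrane granulosa arrays thus carried theca marker RNA, and its part in the values below was not tested. Lower levels on a bulk array can come from fewer cells of a type or from less RNA per cell, which cannot be told apart here.

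The 3 arrays of cow C stood apart within the whole data set, at 27.5 to 52.7 on the third principal component (6.30% of the variance) against -30.8 to 11.3 for the other 15. Cow C also held most members well above cows A and B, so each result that rests on it is given with and without it. No 2 arrays were identical. Within a group, array pairs had correlations of 0.970 to 0.990.

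After LH the sterol regulator INSIG1, the squalene synthase FDFT1 and the fatty acid enzymes SCD and ELOVL6 fell in both granulosa populations. So did the sterol exporter NPC1, the cholesterol-esterifying SOAT1, SREBF1, SREBF2 and the thiolase ACAT1. ELOVL5 and ACSL1 rose in both, although the share of members called higher there was near that of all probe sets. In theca the members that fell were MVK, MVD, FDFT1, TM7SF2, MSMO1 and INSIG1. Of these theca calls, those of MVK and TM7SF2 alone held with each cow left out. Most of the other sterol synthesis enzymes were low in cows A and B in all 3 populations and were not called with all cows. In cow C most lay near the level before LH in antral granulosa and theca. On its membrane granulosa array 9 of the 15 sterol enzymes were above all 3 arrays before LH.

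A member was called when limma's adjusted p, corrected by Benjamini-Hochberg over 24016 probe sets, was under 0.05. In membrane granulosa 12 of 33 members were called, 9 lower and 3 higher after LH, where 21.0% of all probe sets were called (10.9% lower, 10.0% higher). The members' median difference there was -0.63, and that of all probe sets -0.05. In antral granulosa 12 members were called, again 9 lower and 3 higher, with a background of 22.4% (12.2% lower, 10.3% higher) and a median of -0.66 against -0.01. The 3 members called higher in each granulosa population lay near the background share.

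In theca 6 members were called, all lower, against 3.92% of probe sets (2.12% lower, 1.79% higher). The members' median in theca was -0.94, and that of all probe sets -0.00. Of the 12 calls in each granulosa population 11 were the same genes in the same direction, and FDFT1 and INSIG1 were lower in all 3 populations. MVK, MVD and MSMO1 were called in theca and in neither granulosa population, and 17 members were called in none.

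**Figure D1:**
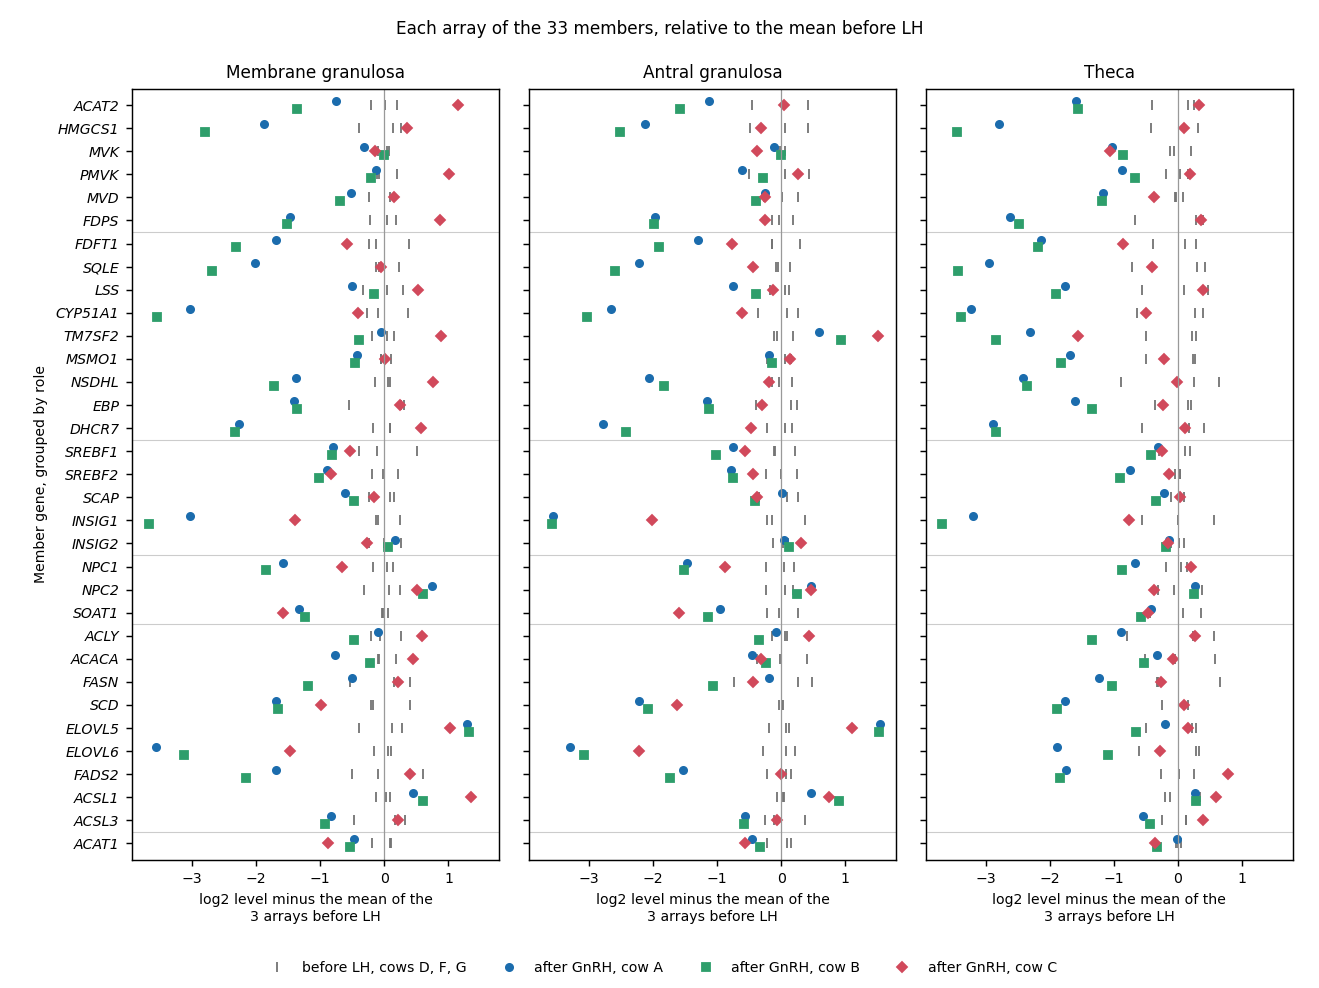
Level of each member on each array minus the mean of the 3 arrays before LH (log2, x axis), by member (rows, grouped by role with grey lines between roles) and population (panels). Grey ticks are cows D, F and G before LH and coloured symbols are cows A, B and C after GnRH. Cows A and B lie left of the ticks for most sterol enzymes, as for CYP51A1 in membrane granulosa (-3.04 and -3.55, against -0.41 for cow C). Cow C lies mostly among or near the ticks in antral granulosa and theca. In membrane granulosa it lies right of them for 9 of 15 sterol enzymes.

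The mevalonate steps build the isoprenoid unit and join it to farnesyl diphosphate. HMGCS1, which condenses acetyl units to HMG-CoA, stood at 12.83, 13.50 and 13.38 in membrane granulosa before LH (cows D, F and G, the order kept below) and at 11.35, 10.44 and 13.60 after (cows A, B and C). In theca it went from 13.47, 12.73 and 13.25 to 10.36, 9.71 and 13.24, and in antral granulosa from 12.73, 13.27 and 13.63 to 11.08, 10.69 and 12.89. Cows A and B were below every array before LH in each population and cow C was within their range or, in membrane granulosa, just above it, so the groups overlapped. The differences with all cows were -1.44 ± 0.84 (SE), -2.05 ± 0.84 and -1.66 ± 0.84 in membrane granulosa, theca and antral granulosa (adjusted p = 0.268, 0.241 and 0.191, limma), and HMGCS1 was not called.

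FDPS, the farnesyl diphosphate synthase, had the same arrangement, with 10.87, 11.28 and 11.14 in membrane granulosa before LH and 9.62, 9.58 and 11.96 after. ACAT2, the cytosolic thiolase that starts the pathway, stood in theca at 10.59, 10.02 and 10.69 before and 8.84, 8.87 and 10.76 after. Neither was called in any population, and in both cow C lay above the highest array before LH in these groups. PMVK, the phosphomevalonate kinase, was not called either, with differences from -0.45 (theca) to 0.22 (membrane granulosa).

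MVK, the mevalonate kinase, fell in theca and was low there in all 3 cows. Its theca levels were 9.09, 9.03 and 9.36 before LH and 8.12, 8.30 and 8.10 after, groups that did not overlap. The difference was -0.99 ± 0.13 (1.98-fold, adjusted p = 3.22e-04, limma). In membrane and antral granulosa MVK differed by -0.16 ± 0.13 and -0.17 ± 0.13 and was not called. A second, dimmer probe set of the gene gave -1.50 ± 0.26 in theca, -1.08 ± 0.26 in antral granulosa (adjusted p = 0.00581) and -0.74 ± 0.26 in membrane granulosa (0.0520), and the remaining one gave -0.45 ± 0.12 in theca (0.0518) and was not called in any population. The probe sets of MVK thus disagreed on granulosa.

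MVD, which makes isopentenyl diphosphate, stood in theca at 8.45, 8.56 and 8.45 before and 7.31, 7.30 and 8.11 after (-0.91 ± 0.23, adjusted p = 0.0370, limma). All 3 cows after LH were below all 3 before. In granulosa MVD differed by -0.35 ± 0.23 and -0.30 ± 0.23 and was not called. Without any single cow other than C the theca call was lost (adjusted p = 0.117 to 0.231).

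Of the enzymes from squalene to cholesterol, FDFT1, which joins farnesyl units to squalene, was called in all 3 populations. It stood at 9.85, 9.96 and 10.48 in membrane granulosa before LH and at 8.41, 7.79 and 9.51 after. In antral granulosa it went from 9.74, 9.73 and 10.17 to 8.59, 7.97 and 9.11, and in theca from 10.42, 9.75 and 10.24 to 8.00, 7.96 and 9.28. In each population all cows after LH were below all cows before, cow C least so.

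FDFT1 fell by 1.53 ± 0.42, 1.32 ± 0.42 and 1.73 ± 0.42 in membrane granulosa, antral granulosa and theca (adjusted p = 0.0160, 0.0332 and 0.0307, limma), or 2.89-fold, 2.50-fold and 3.31-fold. A second FDFT1 probe set gave -1.45 ± 0.63 (0.124), -2.02 ± 0.63 and -1.81 ± 0.63 (0.15), and was called in antral granulosa alone. These calls were lost without cow A, B or G in membrane granulosa (adjusted p = 0.0693 to 0.105), and without any single cow other than C in antral granulosa (0.0836 to 0.140) and theca (0.0578 to 0.206).

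CYP51A1, the lanosterol demethylase, spanned a wide range between cows. In membrane granulosa it stood at 11.51, 11.67 and 12.15 before LH and at 8.74, 8.23 and 11.37 after. In antral granulosa it went from 11.07, 11.52 and 11.70 to 8.78, 8.39 and 10.81, and in theca from 11.89, 10.99 and 12.02 to 8.41, 8.25 and 11.13. In both granulosa populations all arrays after LH lay below all arrays before, although cow C did so narrowly, and in theca cow C lay within the range before LH.

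With all cows CYP51A1 differed by -2.33 ± 0.82, -2.10 ± 0.82 and -2.37 ± 0.82 in membrane granulosa, antral granulosa and theca, and missed the threshold (adjusted p = 0.0573, 0.0833 and 0.147, limma). SQLE, the squalene epoxidase, differed by -1.59 ± 0.74, -1.75 ± 0.74 and -2.26 ± 0.74 in that order and was not called. DHCR7, which carries out the last reduction to cholesterol, differed by -1.35 ± 0.82, -1.90 ± 0.82 and -1.88 ± 0.82, also uncalled.

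Cow by cow, DHCR7 in theca stood at 10.68, 9.94 and 10.91 before LH and at 7.62, 7.67 and 10.62 after. SQLE in theca stood at 12.23, 11.09 and 12.11 before and at 8.86, 8.38 and 11.40 after. NSDHL, a sterol dehydrogenase of the demethylation steps, stood there at 10.55, 9.41 and 10.95 before and at 7.88, 7.94 and 10.28 after. For all 3 genes cows A and B lay over 1 unit below the lowest array before LH, and cow C within the range before LH.

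EBP, the sterol isomerase, differed by -0.84 ± 0.44 in membrane granulosa, -0.86 ± 0.44 in antral granulosa and -1.06 ± 0.44 in theca, and was not called. LSS, which closes the sterol rings, differed by -0.04 ± 0.47, -0.43 ± 0.47 and -1.09 ± 0.47 in that order and was not called. In theca LSS stood at 9.49, 8.84 and 9.88 before and 7.64, 7.50 and 9.79 after, again with cow C among the arrays before LH.

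MSMO1, the methylsterol oxidase, fell in theca, from 13.46, 12.71 and 13.48 to 11.53, 11.38 and 12.99 (-1.25 ± 0.33, adjusted p = 0.0441, limma). Cow C lay above cow F before LH, so the groups overlapped, and the call was lost without any single cow other than C (0.0534 to 0.271). In membrane granulosa MSMO1 moved from a mean of 13.34 ± 0.09 (SD, n = 3) to 13.06 ± 0.26, and in antral granulosa from 13.03 ± 0.19 to 12.96 ± 0.18, and was not called.

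TM7SF2, the sterol reductase that acts after CYP51A1, fell in theca and rose in antral granulosa. In theca it stood at 9.51, 8.79 and 9.56 before LH and at 6.98, 6.45 and 7.72 after (-2.24 ± 0.35, 4.72-fold, adjusted p = 0.00141, limma). In antral granulosa it went from 5.79, 6.09 and 5.85 to 6.5, 6.85 and 7.42 (1.01 ± 0.35, adjusted p = 0.0484). In membrane granulosa it stood at 7.14, 6.92 and 7.26 before and at 7.05, 6.71 and 8.00 after (0.14 ± 0.35, not called).

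The arrays of TM7SF2 before and after LH did not overlap in theca or in antral granulosa. Its antral call was lost without any single cow other than C (adjusted p = 0.0566 to 0.161), and theca markers on the antral arrays moved with it, from 5.91 to 6.14 before LH to 6.64 to 8.08 after, highest in cow C. Their part in this rise was not tested.

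Over the 15 sterol enzymes together, the theca arrays of cows A and B were below all 3 theca arrays before LH for 15 and 15 of 15, with medians of -2.14 and -2.18 relative to the mean before LH. Over all probe sets 29.8% and 27.5% were below. On the theca array of cow C 4 of 15 were below and 2 above, with a median of -0.22, and 30.1% of all probe sets were below.

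In membrane granulosa 14 and 13 of the 15 enzymes were below all arrays before LH in cows A and B, with medians of -1.38 and -1.36, where 36.4% and 35.6% of probe sets were. On the membrane array of cow C 3 were below and 9 above, with a median of 0.36, against 38.1% and 28.1% of all probe sets. In antral granulosa 12 and 11 were below in cows A and B, with medians of -1.16 and -1.59, where 34.0% and 34.1% of probe sets were. On the antral array of cow C 7 of 15 were below and 1 above, with a median of -0.25, against 37.3% and 30.7% of all probe sets, so the share below was nearer the background there.

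Cow C exceeded the mean of cows A and B after LH for 9 of 9 enzymes from squalene to cholesterol in all 3 populations, by a median of 1.63 in membrane granulosa, 0.85 in antral granulosa and 2.22 in theca. Over all 33 members it was the highest of the 3 cows for 27, 25 and 28 in that order, where 35.1%, 34.7% and 40.0% of all probe sets had cow C highest. The members' median SD between cows after LH was 0.62 in membrane granulosa, 0.36 in antral granulosa and 0.64 in theca, against 0.21, 0.21 and 0.20 over all genes. Before LH it was 0.21, 0.22 and 0.36, against 0.20, 0.17 and 0.19.

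**Figure D2:**
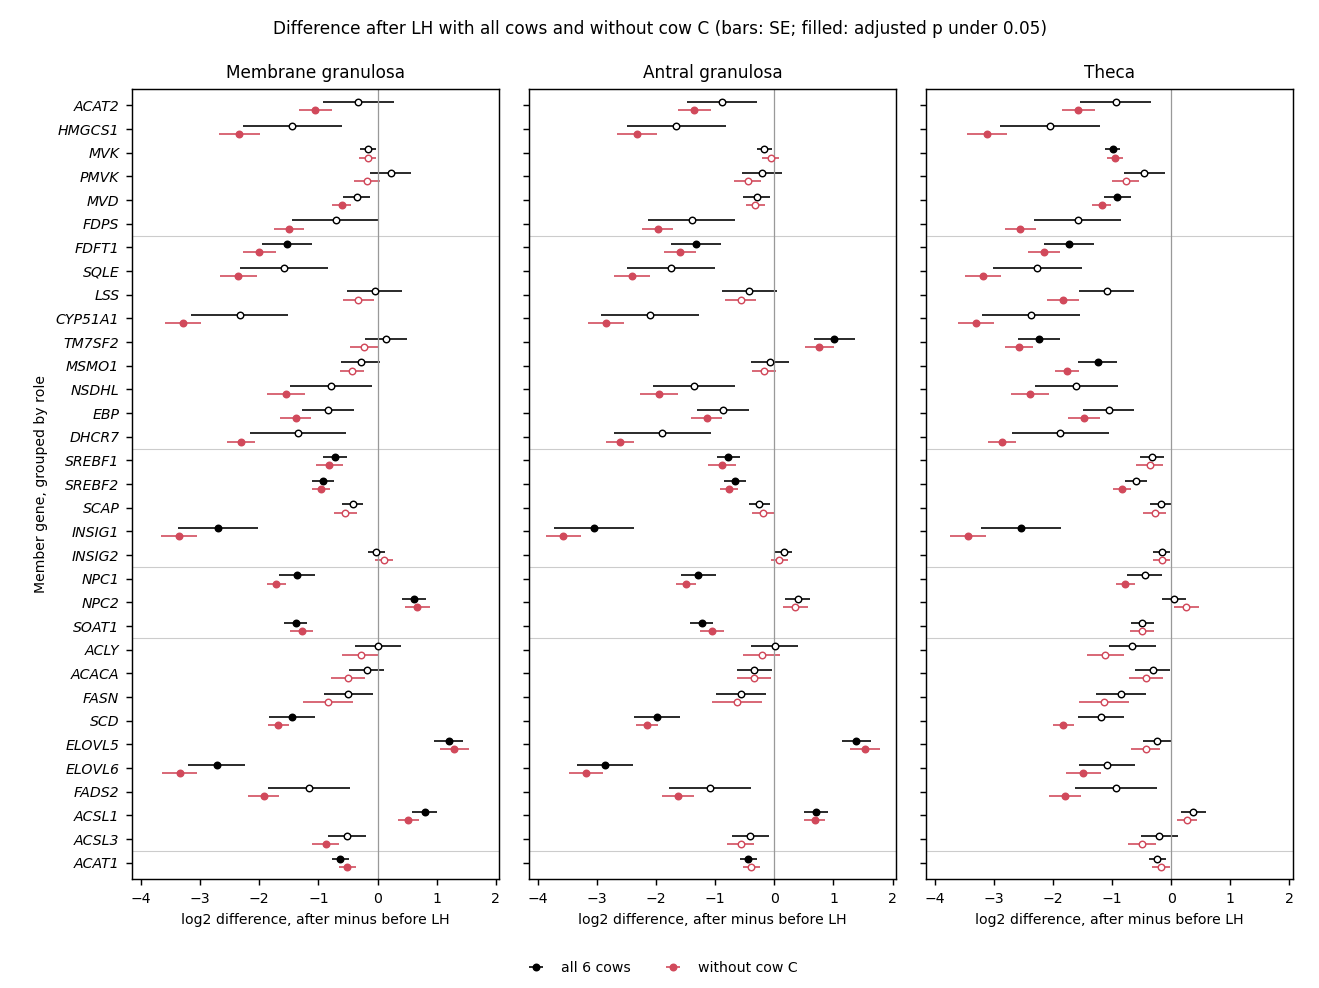
Difference after minus before LH (log2, x axis) of each member (rows, grouped by role) in each population (panels), as the limma estimate with its SE, with all 6 cows in black and without cow C in red. Filled points had an adjusted p under 0.05. CYP51A1 moves from -2.33 ± 0.82 to -3.29 ± 0.30 in membrane granulosa and fills, while SOAT1 moves from -1.39 ± 0.20 to -1.29 ± 0.20 and is filled in both.

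Each cow was left out in turn. Without cow C 23 members were called in membrane granulosa (20 lower, 3 higher), 20 in antral granulosa (17 lower, 3 higher) and 20 in theca (all lower), where 22.5%, 24.1% and 4.23% of all probe sets were called. Without any other single cow the counts were 7 to 11, 6 to 8 and 2. Of all probe sets 14.1% to 18.4%, 16.4% to 17.9% and 1.83% to 3.81% were called then, so the antral counts lay near the background. The sterol enzymes lower without cow C were 10 of 15, 9 of 15 and 14 of 15 in membrane granulosa, antral granulosa and theca, against 1, 1 and 5 with all cows. The results without cow C rest on cows A and B alone after LH. Cow C was set apart partly by these same members, so these results are no independent test of a fall.

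Without cow C the differences of CYP51A1 were -3.29 ± 0.30, -2.85 ± 0.30 and -3.31 ± 0.30 in membrane granulosa, antral granulosa and theca. Those of DHCR7 were -2.30 ± 0.24, -2.60 ± 0.24 and -2.87 ± 0.24, and those of SQLE were -2.35 ± 0.31, -2.41 ± 0.31 and -3.19 ± 0.31. HMGCS1 differed then by -2.34 ± 0.34, -2.33 ± 0.34 and -3.12 ± 0.34. All 4 genes were called in all 3 populations when cow C was left out, and in none with it.

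The other genes called without cow C in all 3 populations but in none with all cows were ACAT2, FDPS, NSDHL, EBP and the desaturase FADS2. In theca NPC1, SREBF2, SCD, ELOVL6 and LSS also joined the calls then. The reverse was rare: of the calls with all cows, that of ACAT1 in antral granulosa was lost without cow C (adjusted p = 0.0789).

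**Figure D3:**
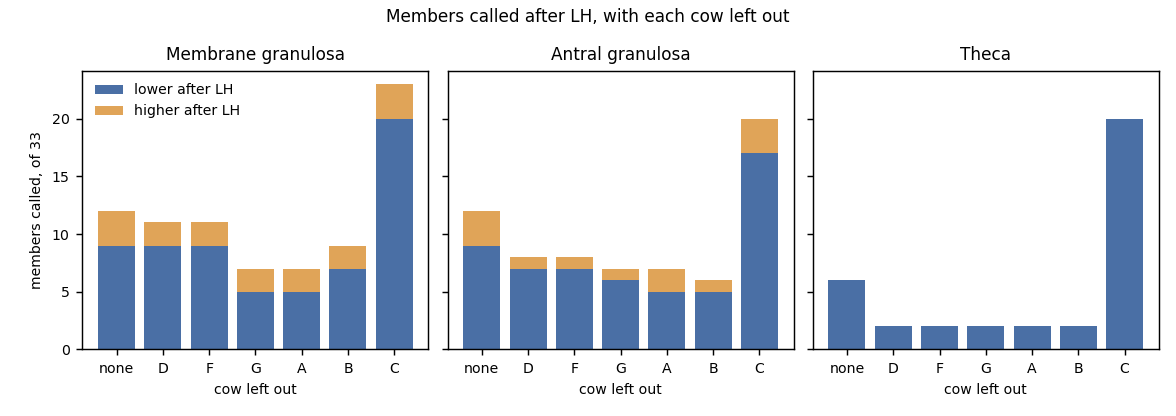
Number of the 33 members called after LH (y axis, bars from 0) with all cows ("none") and with each cow left out in turn (x axis), by population (panels); blue is lower and orange higher after LH. The bar without cow C reaches 23, 20 and 20, and the other bars lie between 2 and 12.

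Other genes moved with the members in cow C. The 5 measured genes that turn cholesterol into progesterone (STAR, CYP11A1, HSD3B1, FDX1 and TSPO) had a mean level of 12.58 on its membrane array against 10.57 and 9.67 in cows A and B, of 12.03 against 10.36 and 8.93 in antral granulosa, and of 12.40 against 11.21 and 10.84 in theca. CYP11A1, the side-chain cleavage enzyme, stood at 13.10 in cow C and at 8.64 and 8.04 in cows A and B in membrane granulosa.

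Theca markers were also higher in cow C on granulosa arrays, at 9.87 against 8.82 and 9.00 in membrane and 8.08 against 6.92 and 6.64 in antral granulosa, but lower on its theca array, at 10.70 against 11.01 and 10.96. Granulosa markers in cow C were at 8.19 against 8.64 and 8.81 in membrane granulosa and at 7.58 against 7.31 and 7.29 in theca. Smooth muscle markers were at 8.18 against 6.82 and 7.08 in membrane granulosa and at 9.66 against 10.35 and 10.47 in theca. The part of these genes or cells in the members' values was not tested.

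Among the genes of SREBP control, INSIG1 fell most. It stood at 11.61, 11.57 and 11.95 in membrane granulosa before LH and at 8.68, 8.03 and 10.31 after, and in antral granulosa it went from 11.21, 11.29 and 11.80 to 7.87, 7.86 and 9.42. In theca it went from 11.33, 10.78 and 10.21 to 7.58, 7.09 and 10.01. The groups did not overlap in any population, and cow C was the highest of the cows after LH in each.

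INSIG1 fell by 2.70 ± 0.67 in membrane granulosa, 3.05 ± 0.67 in antral granulosa and 2.54 ± 0.67 in theca (6.51-fold, 8.30-fold and 5.84-fold; adjusted p = 0.00855, 0.00342 and 0.0469, limma). The antral call held with each cow left out. The membrane call was lost without cow A (0.0521) or G (0.0515), and the theca call without any single cow other than C (0.113 to 0.252).

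SREBF2, which encodes the SREBP that acts mainly on cholesterol genes, fell in granulosa. In membrane granulosa it went from 9.23, 9.40 and 9.62 to 8.52, 8.39 and 8.57 (-0.92 ± 0.18, adjusted p = 0.00171, limma), and in antral granulosa from 9.29, 8.81 and 9.04 to 8.26, 8.30 and 8.60 (-0.66 ± 0.18, 0.0153). In theca it went from 8.52, 8.59 and 8.59 to 7.82, 7.65 and 8.43 (-0.60 ± 0.18, 0.0890, not called). In all 3 populations every cow after LH, cow C included, was below every cow before. The membrane call held with each cow left out, and the antral call was lost without cow A, B, D or G (0.0515 to 0.0957).

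SREBF1, which encodes the SREBPs of fatty acid and general lipid synthesis, fell in granulosa as well, from 9.95, 9.66 and 10.56 to 9.25, 9.23 and 9.51 in membrane (-0.72 ± 0.20, adjusted p = 0.0178, limma) and from 9.23, 9.21 and 9.53 to 8.58, 8.30 and 8.76 in antral granulosa (-0.78 ± 0.20, 0.0108). The groups overlapped in neither population. In theca SREBF1 differed by -0.32 ± 0.20 and was not called. Both calls were lost without cow A or B, and the membrane call also without G (0.0511 to 0.109). The other SREBF1 probe sets that were not dim gave like falls in membrane granulosa (-0.65 ± 0.19 and -0.62 ± 0.21, both called) but -0.25 ± 0.19 and -0.09 ± 0.21 in antral granulosa, not called, so the antral call rests on the probe set used.

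SCAP, the escort of the SREBPs, and INSIG2, the second retention protein, were called in no population. SCAP differed by -0.42 ± 0.18 in membrane granulosa, -0.25 ± 0.18 in antral granulosa and -0.18 ± 0.18 in theca. INSIG2 differed by -0.02 ± 0.14, 0.16 ± 0.14 and -0.16 ± 0.14 in that order. Another probe set of SCAP was lower in membrane granulosa (-0.63), as was 1 that was dim on every array (-0.38). A further probe set of INSIG2 was lower in antral granulosa (-0.53).

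Of the transport and storage genes, NPC1, which exports cholesterol from late endosomes, fell in granulosa, from 10.51, 10.20 and 10.40 to 8.79, 8.53 and 9.71 in membrane and from 10.47, 10.31 and 10.03 to 8.80, 8.76 and 9.40 in antral granulosa. In theca it stood at 9.22, 8.88 and 9.12 before LH and at 8.40, 8.20 and 9.28 after. The granulosa groups did not overlap, and in theca cow C after LH was the highest of all 6 cows. The differences were -1.36 ± 0.30 (2.57-fold), -1.29 ± 0.30 and -0.45 ± 0.30 (adjusted p = 0.00367, 0.00497 and 0.542, limma).

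SOAT1, which esterifies cholesterol for storage in droplets, fell in granulosa with all 3 cows close together. It went from 11.99, 12.07 and 11.97 to 10.68, 10.77 and 10.43 in membrane granulosa (-1.39 ± 0.20, 2.61-fold, adjusted p = 9.21e-05, limma) and from 11.40, 11.59 and 11.88 to 10.67, 10.47 and 10.03 in antral granulosa (-1.23 ± 0.20, 2.38e-04). In theca it differed by -0.49 ± 0.20 and was not called. In granulosa cow C was the lowest of the 3 cows after LH, whereas it was the highest for 9 of 9 enzymes from squalene to cholesterol.

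NPC2, the soluble partner of NPC1, rose in membrane granulosa, from 10.33, 10.49 and 9.93 to 11.00, 10.85 and 10.77 (0.62 ± 0.21, adjusted p = 0.0443, limma). The groups did not overlap, but the call was lost without cow A, B, D or G (0.0704 to 0.218) and with either other scaling of the arrays. It differed by 0.40 ± 0.21 in antral granulosa and 0.04 ± 0.21 in theca. NPC1 and SOAT1 held their granulosa calls with each cow left out.

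The fatty acid genes divided. SCD, which puts the first double bond into saturated fatty acids, fell in granulosa, from 12.97, 12.94 and 13.56 to 11.46, 11.49 and 12.16 in membrane and from 13.08, 13.13 and 13.12 to 10.89, 11.03 and 11.48 in antral granulosa. In theca it stood at 12.01, 11.67 and 12.06 before and at 10.16, 10.02 and 12.01 after. The granulosa arrays did not overlap, whereas cow C in theca kept the level before LH.

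SCD fell by 1.45 ± 0.39 in membrane and 1.98 ± 0.39 in antral granulosa (2.73-fold and 3.94-fold; adjusted p = 0.0135 and 0.00141, limma) and differed by -1.19 ± 0.39 in theca (0.118). The antral call held with each cow left out, and the membrane call was lost without cow A (0.0644) or G (0.101).

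ELOVL6, which lengthens palmitate to stearate, fell about as far as INSIG1 in granulosa. In membrane granulosa it went from 8.16, 7.90 and 8.11 to 4.49, 4.93 and 6.58. In antral granulosa it went from 7.48, 7.83 and 7.97 to 4.46, 4.68 and 5.54, and in theca from 6.97, 6.03 and 6.93 to 4.75, 5.56 and 6.35. The arrays of cow A in both granulosa populations were below 4.62 and dim, so those values may understate the fall. The granulosa groups did not overlap, and the theca groups did.

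ELOVL6 fell by 2.72 ± 0.48 in membrane and 2.87 ± 0.48 in antral granulosa (6.60-fold and 7.28-fold; adjusted p = 6.42e-04 and 3.61e-04, limma), and both calls held with each cow left out. In theca it differed by -1.09 ± 0.48 (0.281).

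ELOVL5, which lengthens polyunsaturated fatty acids, rose in granulosa. It went from 11.42, 10.75 and 11.28 to 12.43, 12.47 and 12.17 in membrane (1.21 ± 0.24, 2.31-fold, adjusted p = 0.00187, limma) and from 11.10, 10.77 and 11.05 to 12.51, 12.50 and 12.07 in antral granulosa (1.39 ± 0.24, 2.62-fold, 5.16e-04). In theca it stood at 12.01, 11.30 and 12.08 before and at 11.59, 11.14 and 11.95 after (-0.24 ± 0.24, not called). The granulosa groups did not overlap, the rise held with each cow left out, and cow C was the lowest of the cows after LH.

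ACSL1, which activates long-chain fatty acids with coenzyme A, also rose in granulosa, from 8.80, 8.58 and 8.74 to 9.15, 9.30 and 10.05 in membrane (0.80 ± 0.21, adjusted p = 0.0117, limma) and from 8.21, 8.11 and 8.20 to 8.63, 9.08 and 8.91 in antral granulosa (0.70 ± 0.21, 0.0228). Neither pair of groups overlapped. The membrane call was lost without cow F (0.0600) and the antral call without cow B, D, F or G (0.0555 to 0.115). In theca ACSL1 differed by 0.37 ± 0.21.

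The enzymes that make palmitate were called in no population. FASN, the fatty acid synthase, differed by -0.49 ± 0.42, -0.57 ± 0.42 and -0.85 ± 0.42 in membrane granulosa, antral granulosa and theca, and ACLY, which supplies cytosolic acetyl-CoA, by 0.01 ± 0.39, 0.00 ± 0.39 and -0.66 ± 0.39. ACACA, the carboxylase, was dim, at 4.20 to 6.0 over the 18 arrays and below 4.62 on all antral arrays after LH, so no fold is given. FADS2, the delta-6 desaturase, differed by -1.15 ± 0.69, -1.09 ± 0.69 and -0.94 ± 0.69, with cows A and B lower and cow C at 9.19, 8.53 and 9.12. ACSL3, another enzyme that activates fatty acids, differed by -0.52 ± 0.32, -0.40 ± 0.32 and -0.20 ± 0.32. Its other probe sets gave -0.76 ± 0.29, -0.65 ± 0.29 and -0.44 ± 0.29, and -0.82 ± 0.30, -0.76 ± 0.30 and -0.64 ± 0.30, and were not called either.

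ACAT1, the mitochondrial thiolase of ketone and isoleucine breakdown, fell in granulosa, from 10.81, 11.09 and 11.11 to 10.53, 10.47 and 10.12 in membrane (-0.63 ± 0.14, adjusted p = 0.00469, limma) and from 10.58, 10.95 and 10.89 to 10.35, 10.48 and 10.24 in antral granulosa (-0.45 ± 0.14, 0.0357). The groups did not overlap, and cow C was the lowest after LH in both. The membrane call held with each cow left out, and the antral call was lost without cow A, B, C, F or G (0.0614 to 0.167).

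Whether the arrays of a member overlapped between the times was also counted. In membrane granulosa 10 members were wholly lower and 3 wholly higher after LH, where 19.7% and 14.9% of all probe sets were. In antral granulosa 14 were lower and 4 higher (19.4% and 17.2% of all probe sets), and in theca 7 were lower and 0 higher (10.4% and 10.0%). The share of members wholly higher lay below the background in each population. With each cow left out in turn, the calls of SREBF2, NPC1, SOAT1, ELOVL5, ELOVL6 and ACAT1 held in membrane granulosa, those of INSIG1, NPC1, SOAT1, SCD, ELOVL5 and ELOVL6 in antral granulosa, and those of MVK and TM7SF2 in theca.

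The difference in the LH effect between theca and granulosa was tested within cows. It was called for 5 members against membrane granulosa, where 9.13% of probe sets were called (4.57% lower, 4.56% higher), and for the same 5 against antral granulosa, where 11.2% were (5.60% lower, 5.64% higher). TM7SF2, MVK and ELOVL5 had the more negative difference in theca, and NPC1 and ELOVL6 the less negative one. The number called higher lay near the background, so NPC1 and ELOVL6 are given for their own values. The comparisons share the theca arrays, so they are given side by side and not as independent results.

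The difference for TM7SF2 was -2.38 ± 0.29 against membrane and -3.25 ± 0.29 against antral granulosa (adjusted p = 3.98e-04 and 3.06e-05, limma with the cow as a block). For ELOVL5 it was -1.44 ± 0.28 and -1.63 ± 0.28 (0.00619 and 0.00205), as the gene rose in granulosa and was not called in theca. For ELOVL6 it was 1.63 ± 0.33 and 1.77 ± 0.33 (0.00809 and 0.00356), from levels before LH that were lower in theca than in granulosa. The arrays of ELOVL6 near the dim limit may compress this difference.

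For NPC1 the difference was 0.91 ± 0.19 and 0.84 ± 0.19 (adjusted p = 0.00928 and 0.0112, limma with the cow as a block), and for MVK it was -0.83 ± 0.17 and -0.82 ± 0.17 (0.00982 and 0.00784). With the second probe set of MVK it was -0.76 and -0.42 and not called. The calls of TM7SF2 and ELOVL5 held with each cow left out in both comparisons. That of MVK was lost without cow B in both (0.0597 and 0.0503) and against membrane granulosa without cow G (0.0591). That of NPC1 was lost without cow A in both (0.0565 and 0.0522) and against antral granulosa without cow F (0.0596), and that of ELOVL6 against membrane granulosa without cow B (0.0605). The theca RNA on membrane granulosa arrays bears on the first comparison, and its part was not tested.

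**Figure D4:**
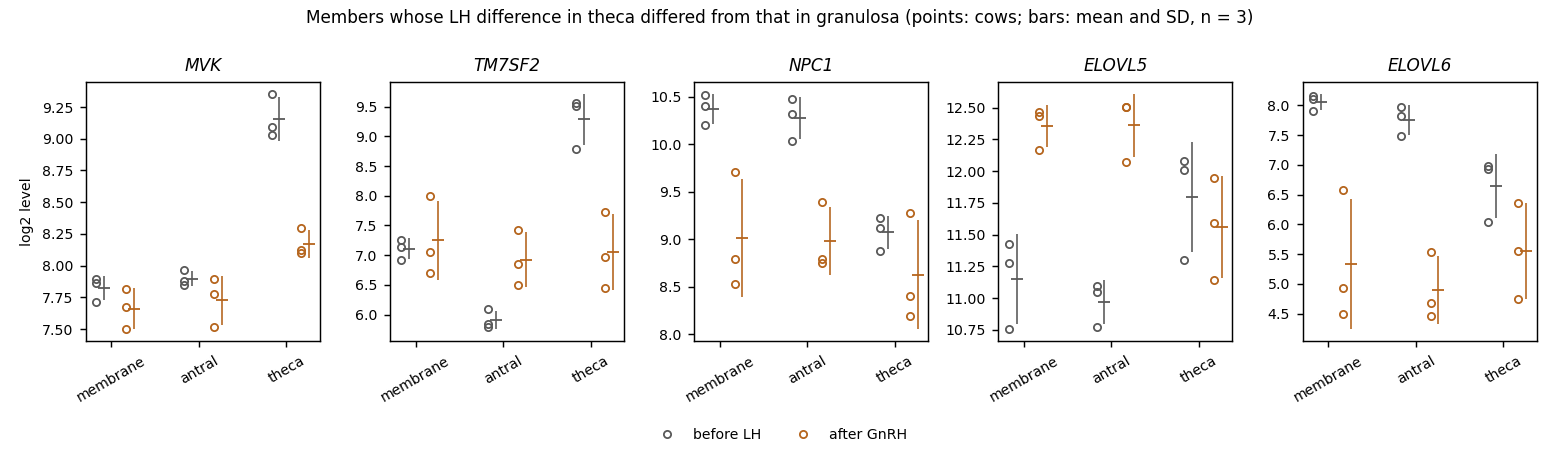
Log2 level (y axis, a scale of its own in each panel) of MVK, TM7SF2, NPC1, ELOVL5 and ELOVL6 in membrane granulosa, antral granulosa and theca, before LH (grey) and after GnRH (brown). Open points are cows, and bars show the mean and SD (n = 3). TM7SF2 drops from 9.29 ± 0.43 to 7.05 ± 0.64 in theca and lies at 5.91 ± 0.16 and 6.92 ± 0.47 in antral granulosa, while ELOVL5 rises in granulosa to 12.36 and stays at 11.80 and 11.56 in theca.

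For the other sterol enzymes the LH effect was not called different between theca and granulosa. All 15 had a more negative estimate in theca than in membrane granulosa, with a median of -0.67, and 14 of 15 than in antral granulosa, with a median of -0.39. The medians of all probe sets were 0.03 and 0.01. The enzymes were read on the same arrays, so these counts are not independent agreements. In each comparison 2 of the 15 passed the test, where 9.13% (4.57% lower) and 11.2% (5.60% lower) of all probe sets did. For INSIG1 the difference was 0.16 ± 0.41 and 0.51 ± 0.41, and for CYP51A1 -0.04 ± 0.31 and -0.27 ± 0.31, which does not show that they respond alike. Between antral and membrane granulosa 0 members and 0% of probe sets were called (limma with the cow as a block), with 1 member and 2236 probe sets (9.31%) under an unadjusted p of 0.05. That member was TM7SF2 (0.87 ± 0.29).

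Before LH, theca and membrane granulosa of the same follicles differed in 15 of 33 members, against 34.3% of all probe sets (15.4% higher and 18.9% lower in theca). Higher in theca were 5 sterol enzymes, namely TM7SF2 (2.18 ± 0.20), MVK (1.34 ± 0.12), PMVK (1.02 ± 0.19), ACAT2 (0.75 ± 0.23) and MVD (0.60 ± 0.16), together with NPC2 (1.04 ± 0.18), ACSL1 (0.89 ± 0.17) and ELOVL5 (0.65 ± 0.20). Lower were SOAT1 (-1.46 ± 0.19), ELOVL6 (-1.41 ± 0.23), NPC1 (-1.30 ± 0.13), SCD (-1.24 ± 0.24), INSIG1 (-0.94 ± 0.29), SREBF2 (-0.85 ± 0.15) and ACAT1 (-0.35 ± 0.12). Each of these 15 went the same way in all 3 cows.

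The remaining sterol enzymes, among them HMGCS1 (-0.09 ± 0.28), SQLE (-0.04 ± 0.21), CYP51A1 (-0.15 ± 0.22) and DHCR7 (0.17 ± 0.22), were not called between theca and membrane granulosa before LH. The calls of MVK, PMVK, TM7SF2, SREBF2, NPC1, NPC2, SOAT1, SCD, ELOVL6 and ACSL1 held with each cow left out. Theca markers on the membrane arrays were at 9.77 in cow D, 7.75 in cow F and 9.67 in cow G, and granulosa markers on the theca arrays at 8.91, 8.50 and 7.65, and the part of this mixing in the contrast was not tested.

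After LH 9 of 33 members differed between theca and membrane granulosa, against 25.8% of probe sets (11.4% higher, 14.4% lower). The number called thus lay near the background, and the genes below are given for their own values. MVK was higher in theca (0.51 ± 0.12), and lower were MSMO1 (-1.09 ± 0.25), LSS (-0.99 ± 0.33), SCD (-0.98 ± 0.24), ELOVL5 (-0.80 ± 0.20), SQLE (-0.71 ± 0.21), SOAT1 (-0.56 ± 0.19), SREBF2 (-0.53 ± 0.15) and NPC1 (-0.39 ± 0.13). TM7SF2, the member with the largest difference before LH, lay at -0.20 ± 0.20 and was not called after. All 9 calls were lost without cow A, and all 9 without cow B, when 10.9% and 10.3% of probe sets were called.

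Antral and membrane granulosa differed in 2 members before LH, both lower in antral granulosa, where 1.77% of probe sets were called (1.09% lower, 0.687% higher). These were TM7SF2 (-1.20 ± 0.20, adjusted p = 0.0172, limma with the cow as a block) and SREBF1 (-0.73 ± 0.16, 0.0404). After LH SREBF1 alone was called (-0.78 ± 0.16, 0.0304), against 3.00% of probe sets (1.57% lower, 1.43% higher), so this count lay at the background. With the probe set used, antral SREBF1 was below membrane SREBF1 in all 6 cows. Its other probe sets that were not dim gave -0.44 ± 0.16 and -0.58 ± 0.18 before LH and -0.04 ± 0.16 and -0.05 ± 0.18 after, and none was called. The call of TM7SF2 was lost without cow D or G, and those of SREBF1 without cow A, B or C at either time and before LH also without D or G.

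Other genes of the sterol pathway were read from lists. Of 8 measured genes of sterol synthesis and SREBP processing outside the members, 2 were lower in membrane granulosa, 3 in antral granulosa and 0 in theca, and none higher, where 10.9%, 12.2% and 2.12% of all probe sets were lower. ERLIN2, which helps degrade HMG-CoA reductase and INSIG1, fell in membrane (-1.09 ± 0.19) and antral granulosa (-0.84 ± 0.19), as did MBTPS1, the site-1 protease that cuts the SREBPs (-0.71 ± 0.13 and -0.87 ± 0.13). TMEM97 fell in antral granulosa (-1.61 ± 0.47), and its membrane levels of 8.84, 9.12 and 11.03 after LH had cow C high like the sterol enzymes.

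Of 13 genes of sterol uptake, efflux and the sterol-sensing LXR receptors, 4 were higher and 2 lower in membrane granulosa, 3 and 2 in antral granulosa, and 1 and 1 in theca. Over all probe sets 10.0% and 10.9%, 10.3% and 12.2%, and 1.79% and 2.12% were higher and lower in that order, so the 2 lower genes in granulosa are near the background. LRP8, a receptor of the LDL receptor family, fell in all 3 (-4.93 ± 0.48, -3.22 ± 0.48 and -2.93 ± 0.48), and its theca level after LH was dim on every array, at 3.61 to 3.99. NR1H3, which encodes LXR alpha, rose in all 3 (1.08 ± 0.19, 0.82 ± 0.19 and 0.74 ± 0.19). LIPA, the lysosomal acid lipase that frees cholesterol from lipoprotein esters, rose in membrane (1.29 ± 0.33) and antral granulosa (1.15 ± 0.33), and so did STARD5, a sterol carrier (1.07 ± 0.22 and 1.10 ± 0.22). The median of the list was 0.27, 0.29 and 0.10, against -0.05, -0.01 and -0.00 over all probe sets.

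Of the 5 measured genes of progesterone synthesis, TSPO, a cholesterol-binding protein of the mitochondrial outer membrane, rose in all 3 populations (3.05 ± 0.26, 3.22 ± 0.26 and 1.81 ± 0.26). FDX1, the electron carrier of side-chain cleavage, rose in antral granulosa (1.57 ± 0.52), and CYP11A1 fell there (-3.90 ± 1.23). The cows differed widely there. Relative to the antral mean before LH, the lowest of these 5 genes lay at -3.84, -6.62 and -1.24 in cows A, B and C. STAR and HSD3B1 were called in none.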

How the data were processed

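RNA of 18 samples was labelled and hybridised to Affymetrix arrays; per the submitters' processing notes the authors made the deposited log2 values by RMA with the program Partek 6.5. Its settings are not given in the sources used here. RMA combines the probes of a probe set and makes array distributions alike, so a change shared by most genes would be hidden. The 112 control probe sets were left out and 24016 tested, with no filter on low values; array medians were 5.74 to 5.86. Precision is limited by having 3 arrays a group.

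Linear models (lmFit, then eBayes, from limma 3.58.1 under R 4.3.3) were fitted over all 18 arrays and adjusted by Benjamini-Hochberg, with a threshold of 0.05. LH effects used group means without a block, since no cow was sampled at both times. Their error estimate therefore counted the arrays of a cow as independent. Comparisons within cows, and differences of LH effects, had the cow as a block; arrays of the same cow, with group means removed, correlated at -0.02 to 0.69, and 17 of 18 pairs were over 0.1. The fits were tested on simulated data. The level of 4.62 below which a probe set was treated as dim was a quantile of the probe sets' means. Figures were drawn with matplotlib 3.10.9.

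All measured members are accounted for: those called in an LH effect are given cow by cow, others by difference or range, and genes outside the members are named as the up to 4 of a list with the smallest adjusted p in each LH effect; the 5 measured genes of progesterone synthesis are all named because their mean is set beside the members. The members and lists were chosen with earlier results of these data known. Of the members, 23 had 1 probe set and 10 had several. Gene names came from the platform's annotation, which can be old. Alternatives were other scalings, probe-set choices, filters, blocks and leaving out each cow.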

Additional observations from a re-analysis of the deposited data

Results flagged for a closer look

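The LH difference in theca differed from that in granulosa, by a test of the difference itself (limma with the cow as a block), for 5 members. Of all probe sets 9.13% were called against membrane granulosa (4.57% lower, 4.56% higher) and 11.2% against antral granulosa (5.60% lower, 5.64% higher). The number of members called higher lay near that share. TM7SF2 lay at -2.38 against membrane granulosa (adjusted p = 3.98e-04) and -3.25 against antral granulosa (3.06e-05), and in all 3 cows after LH its theca level minus granulosa level was below that of all 3 cows before. ELOVL5 lay at -1.44 and -1.63 (0.00619 and 0.00205), and MVK at -0.83 and -0.82 (0.00982 and 0.00784). ELOVL6 lay at 1.63 and 1.77 (0.00809 and 0.00356), and NPC1 at 0.91 and 0.84 (0.00928 and 0.0112). Both comparisons use the same theca arrays. Groups of 3 arrays are too small for a test of single outlying samples, so the distance of cow C from cows A and B is described and was not tested.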

How the results depend on the processing

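With all cows 12, 12 and 6 members were called after LH in membrane granulosa, antral granulosa and theca. Leaving out each cow gave 7 to 23, 6 to 20 and 2 to 20, the highest each time without cow C. Of all probe sets 14.1% to 22.5%, 16.4% to 24.1% and 1.83% to 4.23% were called then. For settings other than leaving out a cow the share of all probe sets called was not counted. Whether those changes are particular to the members was therefore not tested. Asking for a 2-fold difference gave 7 in membrane granulosa, and using only the arrays compared gave 2 in theca. The replicate block, in which a number joins unrelated cows, gave 15, 17 and 11, and same-numbered arrays of the 2 times correlated at -0.17 to 0.23. The 15 members called between theca and membrane granulosa before LH became 8 at 2-fold. The 9 after LH became 1 at 2-fold, 3 without the cow as a block, and 0 to 10 without single cows (10.3% to 26.0% of all probe sets). The 2 between antral and membrane granulosa before LH became 1 with quantile normalization, the second probe set or the 2-fold minimum. They became 1 with only the arrays compared, 0 without the cow as a block, and 0 to 2 without single cows (0.346% to 1.99% of all probe sets). The 1 after LH became 0 with quantile normalization, the second probe set, the 2-fold minimum or no cow block. It became 3 with only the arrays compared, and 0 to 2 without single cows (0% to 2.50% of all probe sets). The 5 members whose LH effect differed between theca and membrane granulosa became 3 at 2-fold or without the cow as a block. Without single cows they became 3 to 9 (4.47% to 9.13% of all probe sets). The 5 against antral granulosa became 3 at 2-fold, without the cow as a block or with the cow as a random block. Of 610 alternative values of 40 called member results, 501 kept direction and call, 108 kept direction only, and 1 reversed: SREBF2 in antral granulosa read from its second, dim probe set lay at 0.23. Some alternatives also used fewer arrays or a stricter threshold, and the cause of these changes was not tested. Centring arrays on their medians moved the median of all probe sets between theca and membrane granulosa before LH from -0.07 to -0.14.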

Other observations

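Of 26 measured genes of fatty acid and triglyceride handling outside the members, 4 were higher and 3 lower in membrane granulosa after LH, 4 and 3 in antral granulosa, and 1 and 1 in theca. Over all probe sets 10.0% and 10.9%, 10.3% and 12.2%, and 1.79% and 2.12% were higher and lower, so the counts of this list in granulosa lie near the background, and the genes below are given for their own values. PLIN2, a coat protein of lipid droplets, rose in all 3 populations (1.93 ± 0.41, 2.02 ± 0.41 and 1.63 ± 0.41), from 11.27, 10.92 and 10.55 to 12.94, 12.01 and 13.57 in membrane granulosa. Cow C was the highest of the 3 cows after LH for PLIN2 in each population, as for most sterol enzymes. CD36, a fatty acid and lipoprotein receptor, rose in membrane (1.93 ± 0.43) and antral granulosa (2.63 ± 0.43), and lay at 0.10 ± 0.43 in theca. ACADM, which starts the breakdown of medium-chain fatty acids, rose in membrane (1.04 ± 0.18) and antral granulosa (1.21 ± 0.18), while HADHA of the same pathway fell in membrane granulosa (-0.80 ± 0.17). DGAT2, which makes triglycerides, fell in theca (-1.17 ± 0.19), where all its arrays after LH were dim.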
